A study of Mus musculus with 12 samples.

Results

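Egr1, Egr2, Egr3, Nr4a1, Nr4a2, Nr4a3 and Nfatc1 encode transcription factors whose transcripts rise within a short time after a T cell receptor is engaged. They were taken by name from a table of 23937 genes, and all 7 were found in it and passed the filter on low values. Egr1, Egr2 and Egr3 are zinc-finger factors, induced in lymphocytes mainly through the ERK kinases, which act on Elk factors and SRF at the promoter. Nr4a1, Nr4a2 and Nr4a3 are orphan nuclear receptors, induced through calcium, calcineurin and NFAT and through CREB. Nfatc1 is a member of the NFAT family, which calcineurin sends to the nucleus, and one of its promoters is itself driven by NFAT. In mice, sustained Nr4a activity in CD8 T cells accompanies exhaustion, and Egr2 and Egr3 restrain T cell responses. None of these genes belongs to T cells alone. Egr1, Nr4a1 and other immediate early genes, which need no new protein to be switched on, are also induced in microglia and macrophages, and by the dissociation of a tissue.

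The libraries came from mouse CD8 T cells, the lymphocytes that kill infected or damaged cells, isolated by flow sorting. Cells from the brain were collected 30 days after stroke, 3 days after stroke and from naive mice, and cells from the blood of naive mice were the other control, with 3 libraries in each of these 4 groups. No strain, sex, age, stroke model or sorting gate is given in the labels, and the protocol names spleens where the labels of the samples name brain or blood; the groups here follow the labels of the samples. Whether separate mice gave the 3 libraries of a group is not stated, so a p-value measures only the spread between libraries, which may be technical. Levels are given as CPM, the reads of a gene in 1e+06 reads of a scaled library size, and differences as log2(CPM + 1) of one group minus that of another with a standard error (SE). The p-values come from limma, a linear model fitted across 22352 genes, with Benjamini-Hochberg adjustment over those genes, and a difference below 0.05 is referred to as called.

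Depth ran from 1104490 to 21014171 reads per library, and the limit that a count of 0 allows (3 reads) lay between 0.298 and 1.65 CPM. Background was measured on 1484 genes of sensory receptors (olfactory, vomeronasal and taste), which lymphocytes are not known to use. Their reads made up 164 to 873 unscaled CPM in the naive brain libraries, day 3 library 1 and day 30 library 1, and 2006 to 7813 in the other 7. Cd3e and Cd8a, which define CD8 T cells, were detected in all 12 libraries. The 15 T cell identity genes in the table (Trac, Trbc1 and Trbc2 were listed but are not used here) took 0.545 to 1.35% of reads at day 30, 0.0880 to 0.270% at day 3, 0.741 to 0.954% in naive brain and 0.422 to 0.546% in naive blood. The 18 microglia genes, Tmem119 and P2ry12 among them, took 0.581 to 1.22% at day 30, 0.740 to 2.84% at day 3, 2.23 to 5.22% in naive brain and 0.0644 to 0.0917% in naive blood. Thus all 9 brain libraries held microglia transcripts at shares above those of the blood libraries, and no marker of that list was at 0 throughout a group. In bulk RNA of this kind, fewer cells of a type and less RNA per cell cannot be told apart.

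Positions are those of the GENCODE vM21 annotation on the mm10 build. Egr2 is on the forward strand of chromosome 10 (67535475 to 67542188), Egr3 on the forward strand of chromosome 14 (70077203 to 70082614), Nr4a1 on the forward strand of chromosome 15 (101254269 to 101274795), Nr4a2 on the reverse strand of chromosome 2 (57106830 to 57124003) and Nr4a3 on the forward strand of chromosome 4 (48045153 to 48086447). No exon of another annotated gene overlaps an exon of any of the 7. Bases before a transcript start are shown for the Nr4a genes and for Egr2, because these windows carry the core of the cAMP response element, to which CREB binds, more than once. RefSeq sequences of the same build were used, 5′ to 3′ on the gene's strand, and capitals mark that core (TGACG, or CGTCA on the other strand). Only bases outside annotated exons are printed.

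Nr4a1 at chr15:101266596-101266845, forward strand: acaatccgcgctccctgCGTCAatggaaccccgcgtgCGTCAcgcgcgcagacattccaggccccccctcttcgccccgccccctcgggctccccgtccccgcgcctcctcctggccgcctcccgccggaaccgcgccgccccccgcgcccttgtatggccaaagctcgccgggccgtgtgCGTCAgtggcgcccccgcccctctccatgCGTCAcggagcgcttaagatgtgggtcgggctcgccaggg
Nr4a2 at chr2:57124004-57124253, reverse strand: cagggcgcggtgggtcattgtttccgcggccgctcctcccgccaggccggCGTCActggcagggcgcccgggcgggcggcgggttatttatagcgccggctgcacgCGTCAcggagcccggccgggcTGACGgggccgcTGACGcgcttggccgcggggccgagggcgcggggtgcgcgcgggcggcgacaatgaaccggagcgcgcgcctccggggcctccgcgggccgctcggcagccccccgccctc
Nr4a3 at chr4:48045055-48045152, forward strand: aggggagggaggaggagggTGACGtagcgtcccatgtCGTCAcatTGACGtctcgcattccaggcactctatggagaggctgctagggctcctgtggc
Egr2 at chr10:67537619-67537868, forward strand: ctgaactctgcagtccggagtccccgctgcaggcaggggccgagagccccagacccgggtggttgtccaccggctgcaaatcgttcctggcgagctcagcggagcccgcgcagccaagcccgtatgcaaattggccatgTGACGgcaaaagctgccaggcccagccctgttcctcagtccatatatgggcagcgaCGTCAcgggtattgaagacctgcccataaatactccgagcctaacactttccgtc

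The Nr4a1 and Nr4a2 windows of 250 bases each held the CRE core 4 times, as did the whole window before the Nr4a3 start, of which the 98 bases shown carry 3. The Nr4a1 window lies inside the gene's annotated span, before an internal start. The Egr2 window shown, also before an internal start, held the core 2 times, and also a CArG box, the element that SRF binds. RefSeq lists 5 starts for Egr2. This window and 2 that overlap it hold these 2 cores and a CArG box, another window held a CArG box and no core, and the window before the first start held neither. Of 32851 mouse windows of the same length, which include several starts of some genes, 17.8% held the core at least once, 3.9% at least 2 times and 0.137% at least 4 times, and 1.47% held a CArG box. The full palindrome TGACGTCA, present in 1.55% of all windows, was in none of the windows of these 4 genes, and the Nr4a element NBRE (AAAGGTCA, 1.34% of all windows) was in none either. An Egr site (GCGTGGGCG or GCGGGGGCG, 3.06% of all windows) was found once, in the Nr4a1 window, and did not overlap a CRE core. Both strands were searched, and a match describes letters, not binding. The promoter set was used for 4 of the 7 genes; Egr1, Egr3 and Nfatc1 are named only.

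Egr1, which like Nfatc1 lies on chromosome 18, had the highest level per kilobase of the 7 genes in each brain group and was scarce in blood. In the 3 libraries of each group it stood at 823, 169 and 181 CPM at day 30, at 1078, 116 and 152 CPM at day 3, at 1846, 1863 and 4202 CPM in naive brain and at 12.4, 4.94 and 14.8 CPM in naive blood. The naive brain libraries lay above all others and the blood libraries below all others, while the 3 libraries of day 30 and of day 3 interleaved, each group with library 1 well above libraries 2 and 3. The blood values rest on 23, 9 and 42 reads. Group means were 391 ± 374 CPM at day 30, 448 ± 546 CPM at day 3, 2637 ± 1355 CPM in naive brain and 10.7 ± 5.14 CPM in naive blood (SD, n = 3 each). With unscaled CPM, Egr1 stood at 531, 214 and 206 at day 30 and at 668, 219 and 223 at day 3. Unscaled, it stood at 1373, 1162 and 2014 in naive brain and at 15.9, 8.15 and 19.6 in naive blood. The naive brain libraries again lay above all others and the blood libraries below all others.

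Egr2, which restrains effector genes and is needed for anergy in mouse T cells, was detected in all 12 libraries. It stood at 12.5, 42.2 and 32.5 CPM at day 30, at 7.92, 9.55 and 11.8 CPM at day 3, at 19.0, 41.9 and 44.3 CPM in naive brain and at 9.73, 18.7 and 7.04 CPM in naive blood. The 3 day 3 values lay below every value of day 30 and of naive brain, and overlapped those of blood. This separation depended on the scaling. With unscaled CPM day 3 stood at 4.91, 18.1 and 17.4, while day 30 library 1 was at 8.04 and naive brain library 1 at 14.1. Egr3, a close relative with overlapping functions, was low in all libraries. It stood at 3.62, 1.38 and 0.452 CPM at day 30, at 0.634, 9.55 and 10.7 CPM at day 3, at 0.775, 2.15 and 1.09 CPM in naive brain and at 15.7, 6.03 and 4.58 CPM in naive blood. These values come from 1 to 29 reads per library, and its group means were highest in blood and lowest in naive brain.

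Nr4a1 (Nur77), the receptor most often used as a reporter of T cell receptor signal strength in mice, varied widely within groups. It stood at 113.5, 8.72 and 2.26 CPM at day 30, at 87.8, 13.2 and 9.64 CPM at day 3, at 25.6, 137 and 91.8 CPM in naive brain and at 0, 7.68 and 10.9 CPM in naive blood, where the first library, at 0 reads, allows up to 1.62 CPM. All naive brain values exceeded all blood values, and library 1 of day 30 and of day 3 stood far above libraries 2 and 3 of its group, as for Egr1. Nr4a2 (Nurr1) stood at 106, 129 and 75.9 CPM at day 30, at 83.1, 38.2 and 21.96 CPM at day 3, at 214, 112 and 229 CPM in naive brain and at 2.16, 97.6 and 0.704 CPM in naive blood. Blood library 2, with 178 reads against 4 and 2 in the other blood libraries, was the exception to a near absence from blood. In that library the neuron and glia list also took 0.169% of reads, against 0.0193 and 0.0270% in the other 2, and a link between these values was not tested. Nr4a3 (Nor1) was scarce, at 1.59, 22.04 and 10.4 CPM at day 30, at 8.88, 12.3 and 6.96 CPM at day 3, at 3.87, 0.323 and 25.2 CPM in naive brain and at 10.3, 2.74 and 5.63 CPM in naive blood. Its ranges overlapped between every pair of groups.

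Nfatc1 was detected in every library, at 241, 136 and 114 CPM at day 30, at 191, 80.5 and 61.0 CPM at day 3, at 107, 512 and 334 CPM in naive brain and at 125, 77.9 and 108 CPM in naive blood. Its ranges overlapped between every pair of groups. Per kilobase of annotated exon, so that genes can be set side by side, Egr1 was highest of the 7 in the brain groups, at 87.2 ± 83.4 CPM per kilobase at day 30, 99.998 ± 122 at day 3 and 588 ± 302 in naive brain. In naive blood Nfatc1 was highest at 13.9 ± 3.19 and Egr1 stood behind 3 others at 2.39 ± 1.15 (SD, n = 3). All 7 together took 0.0474 to 0.0839% of reads at day 30, 0.0403 to 0.0903% at day 3, 0.165 to 0.236% in naive brain and 0.0201 to 0.0356% in naive blood.

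**Figure D1:**
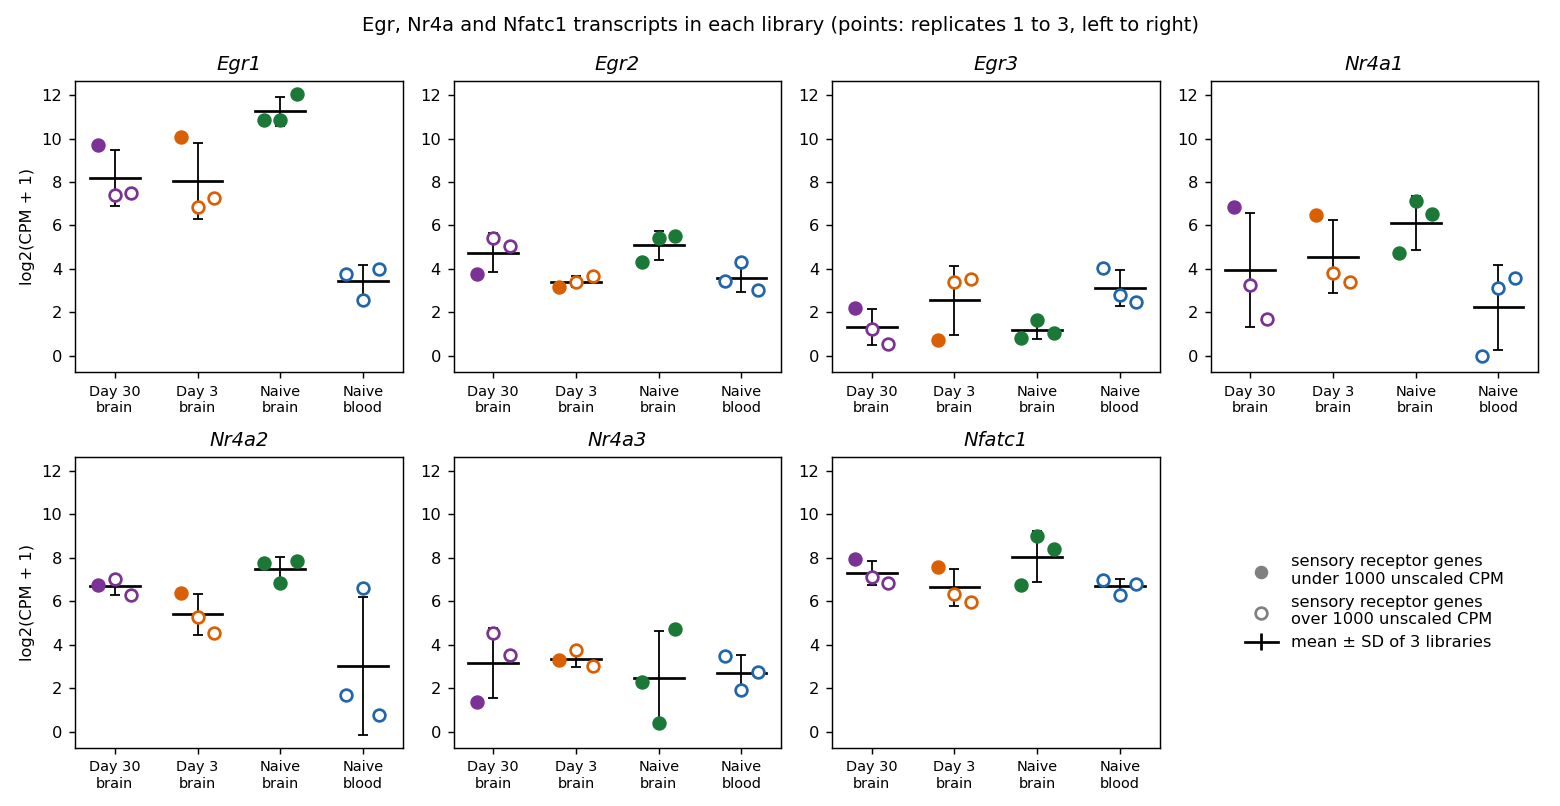
Level of each gene in the 12 libraries as log2(CPM + 1), with replicates 1 to 3 from left to right in each group and a bar for the mean ± SD of 3 libraries; filled points are libraries with under 1000 unscaled CPM on sensory receptor genes. Egr1 is highest in naive brain and lowest in blood, at group means of 2637 and 10.7 CPM, and Nfatc1 overlaps between all groups.

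The comparison of naive brain with naive blood sets libraries of cells sorted as CD8 T cells from an uninjured brain against those from the circulation. In naive brain the microglia list took 2.23 to 5.22% of reads and the T cell identity list 0.741 to 0.954%, so the differences are not those of CD8 T cells alone. Egr1 was much higher in naive brain, by 7.82 ± 0.76 (log2 difference ± SE, adjusted p = 1.14e-11 by limma), at 2637 against 10.7 CPM, and it held the third place of 22352 genes both by p and by size. Nr4a2 rose by 4.45 ± 0.93 (adjusted p = 0.000784, limma) and Nr4a1 by 3.90 ± 1.09 (adjusted p = 0.0158, limma). These 3 of 7 genes were called, where 7.59% of all genes tested were, 6.61% higher and 0.975% lower (1478 higher and 218 lower; 693 and 870 with unscaled CPM, 1318 and 2481 by DESeq2, 2882 and 12 with median centring). The remaining 4 were not called, with differences of 1.51 ± 0.96 for Egr2, 1.37 ± 0.73 for Nfatc1, -0.24 ± 1.16 for Nr4a3 and -1.93 ± 1.09 for Egr3. Egr1, Egr2, Nr4a1 and Nr4a2 had all naive brain values above all blood values, which 15.6% of all genes did, and Egr3 had all of them below, as did 15.2%. With unscaled CPM, Egr2 and Nr4a2 overlapped, since blood library 2 stood at 30.8 for Egr2 and 161 for Nr4a2, above every naive brain value. The median difference over the 7 was 1.51, against -0.37 over all genes tested. Over the genes with at least 10 CPM in 3 libraries the median was 0.46.

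Egr1 remained called in this comparison under every one of the 25 alternatives run on it. Nr4a1 lost its call with unscaled CPM, with quantile normalization, in a fit on these 2 groups alone, with the background as a covariate (0.99, adjusted p = 0.960, limma) and without blood library 1 or naive brain library 2 or 3. Its adjusted p over the alternatives lay between 0.00572 and 0.960. Nr4a2 lost it with quantile normalization, in the fit on the 2 groups, with the background covariate and in both count tests (2.43 and adjusted p = 0.121 by edgeR, 1.84 and adjusted p = 0.201 by DESeq2). Its adjusted p lay between 1.03e-06 and 0.641 over the alternatives, and without blood library 2 its difference was 6.26.

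Other genes of the same pathways were followed in lists. Among 22 further immediate early genes, 20 rose in naive brain and none fell. Fos rose by 7.05 ± 0.71, Jun by 6.74 ± 0.73 and Atf3 by 6.69 ± 0.79, all 3 subunits of AP-1 or its relatives, and Gadd45b, a stress gene, by 5.60 ± 0.95. Of 20 other receptor-induced genes 7 rose. They were led by the chemokine gene Xcl1 (7.04 ± 0.93), the cytokine gene Ifng (6.51 ± 0.94), the transcription factor gene Bhlhe40 (5.66 ± 0.77) and the chemokine gene Ccl4 (5.57 ± 0.69). Of 16 genes leading from Ras to ERK and SRF, 4 rose (Map2k2, Elk3, Mapk3 and Rps6ka1, by 2.52 to 3.54). Of 24 calcium, calcineurin and NFAT genes only the channel gene Orai1 did (3.93 ± 1.07). Among 20 partners, co-regulators and targets of Egr and Nr4a factors, the checkpoint receptor gene Pdcd1 (5.02 ± 1.0) and the RXR gene Rxrb (3.31 ± 1.0), whose family pairs with Nr4a1 and Nr4a2, rose. The median difference was 4.96 for the immediate early genes, 1.65 for the receptor-induced genes, 1.12 for the ERK genes, 1.05 for the calcium genes and 0.87 for the partners. In the same comparison all 18 microglia genes rose, with a median of 6.78, 4 of 15 T cell identity genes rose, with a median of 1.91, and 8 of 18 monocyte and macrophage genes rose, with a median of 1.97. The part of microglia RNA in the differences of the 7 genes was not tested. With unscaled CPM, quantile normalization, median centring, edgeR and DESeq2, 18 to 20 of the immediate early genes and 6 to 9 of the receptor-induced genes rose. With the background covariate 3 and 0 did, and 5 of the 18 microglia genes. Under the same scalings and tools 1 to 6 ERK genes, 0 to 5 calcium genes and 1 to 5 partner genes rose.

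At day 3 after stroke, Egr1 was lower than in naive brain, at 448 against 2637 CPM, a difference of -3.19 ± 0.76 (adjusted p = 0.0218, limma). It was the only one of the 7 called, where 0.716% of all genes tested were called, 0.152% higher and 0.564% lower (34 higher and 126 lower; 115 and 110 with unscaled CPM, 25 and 31 with quantile normalization, 800 and 175 by DESeq2). Egr2 (-1.67 ± 0.96), Nr4a1 (-1.56 ± 1.09), Nr4a2 (-2.07 ± 0.93, adjusted p = 0.349 by limma) and Nfatc1 (-1.42 ± 0.73) had negative differences that were not called. Egr3 (1.37 ± 1.09) and Nr4a3 (0.88 ± 1.16) had positive ones. Egr1, Egr2 and Nr4a2 had all day 3 values below all naive brain values, which 8.5% of all genes did. With unscaled CPM, of these only Egr1 kept the separation. Unscaled, Egr2 stood at 4.91, 18.1 and 17.4 at day 3 and at 14.1, 26.1 and 21.2 in naive brain. Nr4a2, unscaled, stood at 51.4, 72.6 and 32.3 at day 3 and at 159, 69.7 and 110 in naive brain. The median over the 7 was -1.56, against 0.50 over all genes. The all-gene median was -0.32 when only genes with at least 10 CPM in 3 libraries were fitted.

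The Egr1 call at day 3 changed with the libraries, the scaling and the test used, and held in 14 of 27 alternatives. These include fits without 1 day 30 or blood library, which leave the difference unchanged and alter only the shared estimate of spread. When 1 day 3 or naive brain library was left out, the call held only without day 3 library 1. The call was lost with a pseudocount of 0.1, no filter on low values, quantile normalization and median centring. The call was also lost without day 3 library 2 or 3 and without any one of the 3 naive brain libraries, at differences between -2.59 and -3.39, and in the count tests (adjusted p = 0.255 by edgeR and 0.0544 by DESeq2). The adjusted p ranged from 0.000142 to 1 over all alternatives. Without the first libraries of day 3 and day 30, the ones of low background, the difference was -4.19 ± 0.61 (adjusted p = 0.000142, limma). With the background as a covariate it was -1.37 ± 0.61 (adjusted p = 0.994, limma). With the summed level of the microglia list as a covariate among the 9 brain libraries it was -1.10 ± 0.56 (adjusted p = 1, limma), against -3.19 ± 0.78 (adjusted p = 0.0129, limma) in these 9 libraries without that term.

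Several genes downstream of the antigen receptor were lower at day 3 than in naive brain. In the receptor-induced list 3 of 20 fell and none rose: Xcl1 (-4.29 ± 0.93), Ifng (-4.12 ± 0.94) and Myc (-3.55 ± 0.85), which drives growth. In the partner list 3 of 20 fell: Fasl (-3.35 ± 0.87), a death ligand gene described as a target of Egr2 and Egr3, Tox (-3.21 ± 0.82), which acts with Nr4a factors in exhausted cells, and Dgka (-3.16 ± 0.67), a brake on Ras signalling described as an Egr2 target. Rasgrp1, which activates Ras below the receptor, fell by 3.07 ± 0.73 as the only one of 16 ERK genes, and 0 of 24 calcium and NFAT genes were called by limma, edgeR or DESeq2 (6 lower at an unadjusted p under 0.05 by limma). In the calcium list Nfatc2 averaged 29.5 CPM at day 3 and 102 CPM in naive brain, and Nfatc3 60.0 CPM at day 3 and 153 CPM in naive brain. Of the 22 immediate early genes 4 fell: Dusp2 (-4.06 ± 0.80), Junb (-3.22 ± 0.75), Ppp1r15a (-3.15 ± 0.78) and Jun (-2.91 ± 0.73). Beside these changes, 14 of 15 T cell identity genes fell (median -3.16), 3 of 18 microglia genes fell (median -2.11) and 3 of 18 monocyte and macrophage genes rose (Spp1, Chil3 and Fn1). By edgeR, with median centring and with either covariate, 0 T cell identity genes and 0 microglia genes were called; T cell identity genes fell in 9 cases by DESeq2 and 5 with quantile normalization, and microglia genes in 0 and 1. The monocyte and macrophage list held a share of reads of 0.694 to 1.91% at day 3, and of 0.371 to 0.476% in naive brain. The part of these lists in the differences above was not tested. None of the falls in the receptor-induced, partner, ERK and immediate early lists was called by edgeR, with median centring or with the background or microglia covariate, and with quantile normalization 0, 1, 0 and 1 genes of these lists were. DESeq2 called 2, 3, 1 and 3 genes of these lists lower, and 1 receptor-induced gene higher. Without the first libraries of day 3 and day 30 the counts that fell were 6 of 20, 4 of 20, 2 of 16 and 17 of 22, beside 15 of 15 T cell identity genes and 12 of 18 microglia genes.

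At day 30, none of the 7 genes was called against naive brain by limma. Of all genes tested 0.224% were called, 50 lower and 0 higher (90 and 29 with unscaled CPM, 8 and 4 with quantile normalization, 67 and 158 by DESeq2). At an unadjusted p under 0.05, 656 genes were higher and 1334 lower, and Egr1 and Nr4a1 were among the lower; edgeR and DESeq2 also called 0 of the 7. Egr1 averaged 391 CPM at day 30 and 2637 CPM in naive brain, a difference of -3.05 ± 0.76 that missed the threshold (adjusted p = 0.0555, limma). Of the 7 it alone showed no overlap, all day 30 values being lower, as for 6.03% of all genes. Nr4a1 differed by -2.18 ± 1.09 (adjusted p = 0.559, limma), and the other 5 genes by -0.79 to 0.67. The median over the 7 was -0.76, against 0.19 over all genes. With the filter of 10 CPM in 3 libraries the all-gene median was -0.14. The comparison shares its naive brain libraries with that of day 3.

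The Egr1 difference at day 30 crossed the threshold in 8 of 27 alternatives, and its adjusted p ran from 0.000919 to 0.998 over them. Without day 30 library 1 it was -3.79 ± 0.79 (adjusted p = 0.00103, limma). In the 9 brain libraries alone it was -3.05 ± 0.78 (adjusted p = 0.0256, limma), and -0.61 ± 0.60 (adjusted p = 0.966, limma) once the microglia list level was a covariate. edgeR gave -2.73 (adjusted p = 0.393) and DESeq2 -2.60 (adjusted p = 0.0547).

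Other immediate early genes fell at day 30, 9 of 22 with none rising, led by Jun (-5.16 ± 0.73), Ier3 (-4.54 ± 1.06), Fos (-4.19 ± 0.71) and Atf3 (-4.07 ± 0.79), and the list's median was -2.99. No gene of the calcium, ERK, partner and receptor-induced lists was called by limma, edgeR or DESeq2, 0 of 80 in all, with medians between -0.61 and -0.02. At an unadjusted p under 0.05 by limma, 3 of 24, 3 of 16 and 2 of 20 were lower in the calcium, ERK and partner lists and none was higher, and in the receptor-induced list 2 were higher and 2 lower. Xcl1, for example, averaged 498 ± 327 CPM at day 30 and 554 ± 93.4 CPM in naive brain, and Tox 105 ± 58.2 CPM at day 30 and 101.1 ± 8.31 CPM in naive brain. Of the 18 microglia genes 5 fell (median -2.73), and no T cell identity gene was called by limma, edgeR or DESeq2 (0 of 15, median -0.69; 1 lower at an unadjusted p under 0.05 by limma). Of the immediate early genes 1 fell by edgeR, 7 by DESeq2, 14 with unscaled CPM, 3 with quantile normalization and 0 with median centring, the background covariate or the microglia covariate. Without the first libraries of day 3 and day 30, 18 fell, beside 12 of 18 microglia genes and 4 of 15 T cell identity genes.

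**Figure D2:**
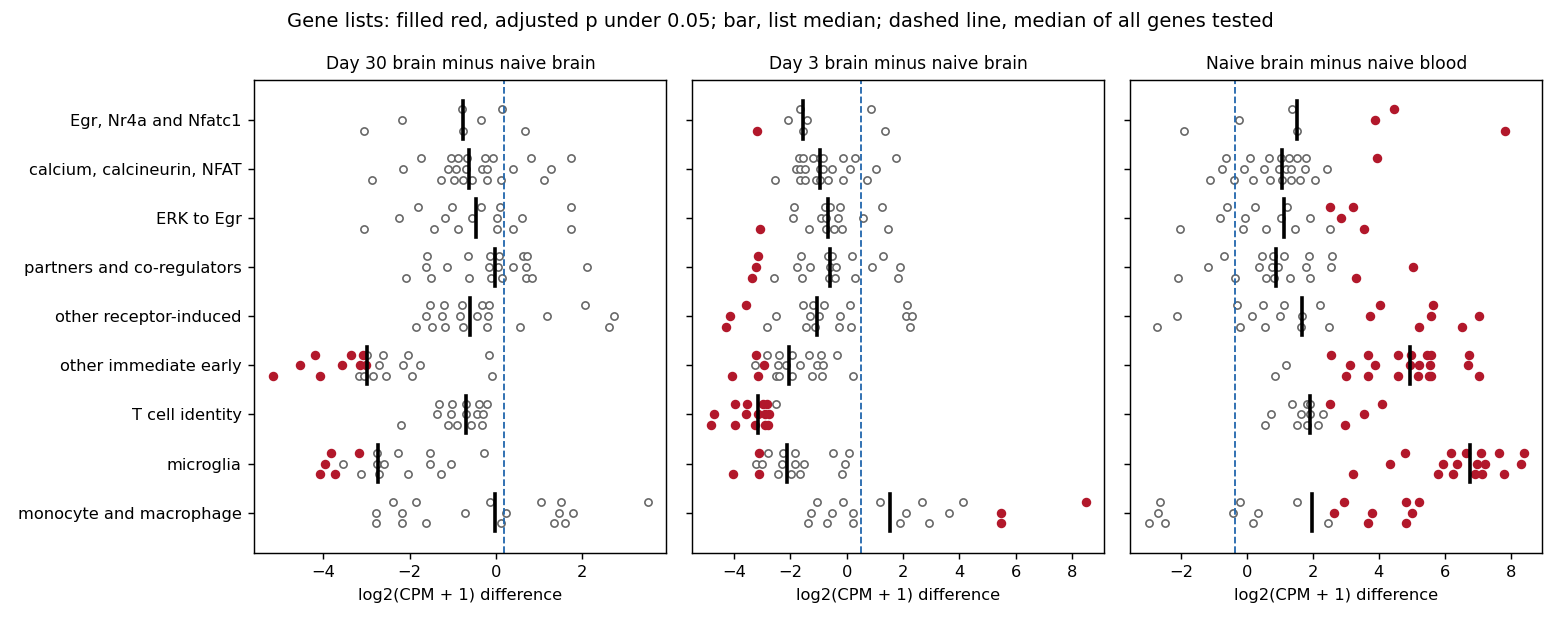
Each point is a gene's log2(CPM + 1) difference in 3 comparisons, by gene list; filled red points passed an adjusted p of 0.05, black bars are list medians and the dashed line is the median of all genes tested. In naive brain against blood the immediate early and microglia lists stand far to the right, with medians of 4.96 and 6.78, and the 7 genes spread from -1.93 to 7.82.

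Between day 30 and day 3, no gene of the 7 was called by limma, edgeR or DESeq2, nor was any below an unadjusted p of 0.05 by any of them. Of all genes tested limma called 0.255%, 0.116% higher and 0.139% lower (26 higher and 31 lower; 51 and 120 by DESeq2, 0 and 8 with median centring). With the replicate number as a block, limma called 61 higher and 54 lower, and again none of the 7. The block was fitted on all 12 libraries, with the same replicate effect in all 4 groups. A paired fit of the day 30 and day 3 libraries alone was not run. That these libraries are paired by number is an assumption. Egr1 differed by 0.14 ± 0.76, at 391 CPM at day 30 and 448 CPM at day 3. Egr2 had all day 30 values above all day 3 values, as 4% of all genes did, with means of 29.1 ± 15.2 CPM at day 30 and 9.75 ± 1.94 CPM at day 3 and a difference of 1.34 ± 0.96 (adjusted p = 0.976, limma). With unscaled CPM the Egr2 ranges overlapped, with day 30 library 1 at 8.04 and day 3 library 2 at 18.1. Nr4a2 had means of 104 ± 26.9 CPM at day 30 and 47.7 ± 31.6 CPM at day 3, a difference of 1.28 ± 0.93. The other 4 genes differed by -1.22 to 0.66. In this comparison Fasl (3.76 ± 0.87) and Xcl1 (3.96 ± 0.93) rose at day 30 from the partner and receptor-induced lists, as did 3 of 15 T cell identity genes (Cd2, Lck and Cd3g, by 3.25 to 3.48), and no immediate early gene was called by limma or edgeR (0 of 22, median -0.93), while DESeq2 called 1 lower. Before adjustment, 8 were lower and 1 higher by limma at a p under 0.05. Neither the Xcl1 call nor another of its list was made by edgeR, DESeq2 or with quantile normalization, and with unscaled CPM 1 immediate early gene rose and 7 fell. The T cell identity genes that rose numbered 12 with unscaled CPM, 4 by DESeq2 and 0 by edgeR or with median centring. With the replicate block, 8 T cell identity genes and 2 partner genes rose. In the same comparison 1 of 18 monocyte and macrophage genes fell at day 30, Spp1 (-4.96 ± 0.95), and 3 did with the block; 16 of the 18 differences were negative (median -1.81). Of the 18 microglia differences 14 were negative (median -0.64), with 0 called by limma or edgeR, 1 lower by DESeq2 and 3 lower at an unadjusted p under 0.05 by limma. The part of these lists in the Fasl and Xcl1 differences was not tested.

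**Figure D3:**
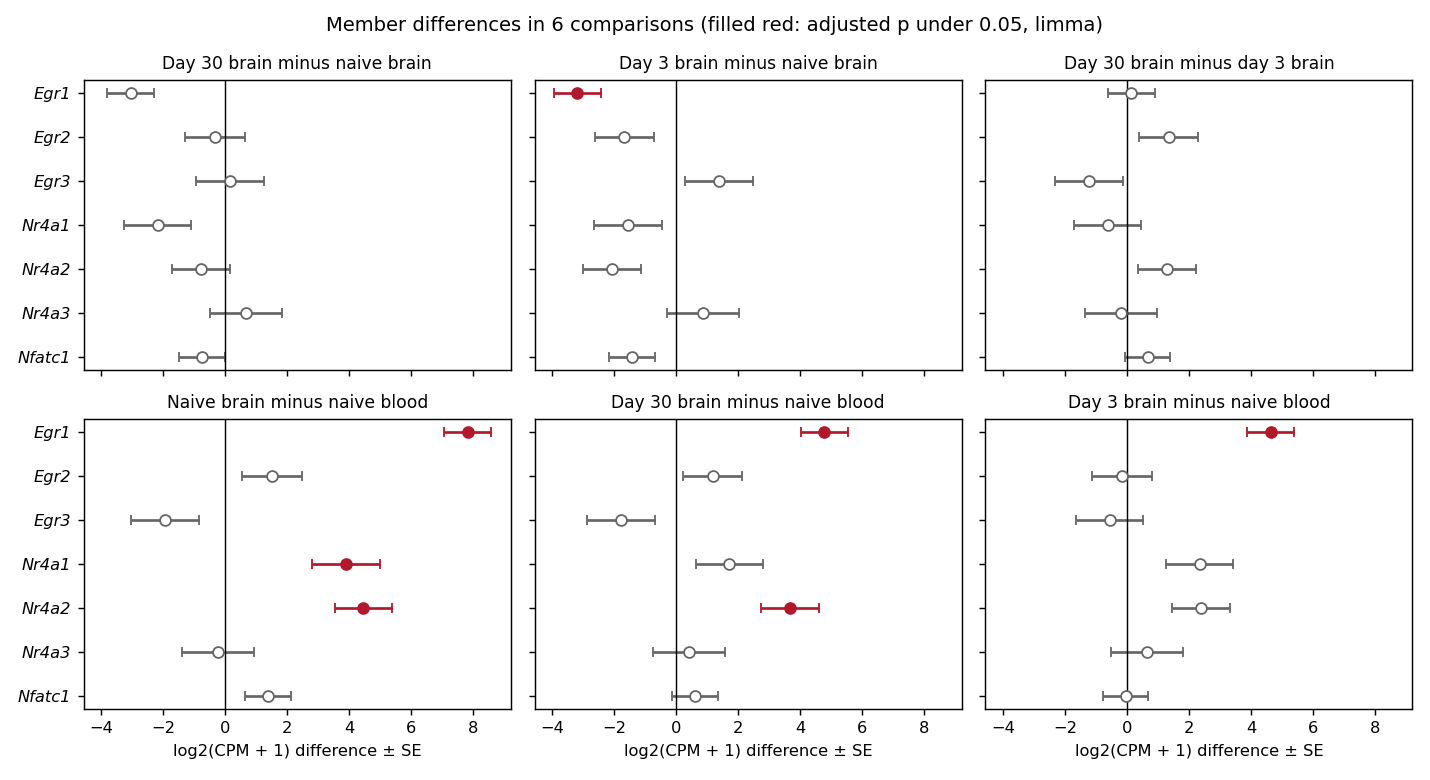
Difference ± SE on the log2(CPM + 1) scale for the 7 genes in 6 comparisons; filled red points passed an adjusted p of 0.05 (limma). Egr1 is called higher than blood by 4.77 at day 30, 4.63 at day 3 and 7.82 in naive brain, and lower than naive brain at day 3, by 3.19 on the log2 scale.

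The stroke groups were also set against naive blood. At day 30, Egr1 (4.77 ± 0.76, adjusted p = 4.30e-05, limma) and Nr4a2 (3.66 ± 0.93, adjusted p = 0.0344, limma) were higher than in blood, 2 of 7 where 0.711% of all genes tested were called (0.676% higher and 0.0358% lower). At day 3 Egr1 alone was called (4.63 ± 0.76, adjusted p = 2.71e-05, limma), where 1.18% of all genes tested were (1.1% higher and 0.085% lower). Nr4a2 at day 3 differed by 2.38 ± 0.93 (adjusted p = 0.326, limma) and Nr4a1 by 2.34 ± 1.09 at day 3 and 1.71 ± 1.09 at day 30. The Nr4a2 call at day 30 held in 8 of 25 alternatives. Its ranges overlapped through blood library 2. Without that library the difference was 5.46 ± 0.95 at day 30 (adjusted p = 0.000151, limma) and 4.19 ± 0.95 at day 3 (adjusted p = 0.00467, limma). Without blood library 3 it was 2.54 ± 0.97 at day 30 (adjusted p = 0.265, limma). Over all alternatives its adjusted p ranged from 0.000151 to 0.702 at day 30 and from 0.00467 to 1 at day 3. The Egr1 calls held in 24 of 25 alternatives at each time and missed with median centring. The 3 comparisons share the blood libraries.

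Of 20 receptor-induced genes, 5 were higher at day 30 than in blood (Xcl1 by 6.71 ± 0.93, Ifng by 4.99 ± 0.94, Bhlhe40 by 4.46 ± 0.77 and Ccl3 by 4.44 ± 0.84 among them). At day 3 it was 4 of 20 (Bhlhe40 by 4.46 ± 0.77, Ccl4 by 4.27 ± 0.69, Ccl3 by 4.25 ± 0.84 and Tnf by 3.82 ± 1.05). Immediate early genes rose in 2 of 22 cases at day 30 (Fosb by 3.02 ± 0.73 and Fos by 2.87 ± 0.71) and in 7 of 22 at day 3, among them Atf3 (4.77 ± 0.79). Pdcd1 (3.90 ± 1.0) and Elk3 (3.27 ± 0.83) were called at day 30, and Dgka (-2.42 ± 0.67) at day 3. Of the 18 microglia genes, 14 rose at day 30 (median 3.92) and 15 at day 3 (median 4.49). Of the 18 monocyte and macrophage genes 4 rose at day 30 (median 1.46) and 8 at day 3 (median 3.58), Spp1 by 3.85 ± 0.95 at day 30 and 8.80 ± 0.95 at day 3. No T cell identity gene was called by limma at either time, with medians of 1.13 at day 30 and -1.31 at day 3. At an unadjusted p under 0.05, 5 of 15 were higher at day 30 and 6 of 15 lower at day 3. By edgeR 0 were called at both times, and by DESeq2 0 at day 30 and 1, lower, at day 3. The part of these lists in the differences from blood was not tested. With median centring the counts that rose at day 30 were 1 receptor-induced, 0 immediate early and 2 microglia genes, and at day 3 they were 1, 2 and 5. With unscaled CPM, 7 immediate early genes rose at day 30 and 13 at day 3.

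To describe which genes behaved like each of the 7 over the 12 libraries, profiles of log2(CPM + 1) minus the gene's own mean were compared by their root mean square difference. The candidates were 13252 tested genes with a mean of at least 10 CPM in their highest group (13253 for Egr3). Predicted loci with names of the Gm or Rik kind were left out of them. Among the 3 genes nearest to Egr1 were Cst3, encoding cystatin C (0.607), and C1qc, a complement gene of microglia and macrophages (0.816), against a median of 2.94 over all candidates. Of the 18 microglia genes 14 were among the 100 nearest to Egr1, as were 9 of the 22 other immediate early genes, with Fos at rank 9 (0.888). So were 3 of 19 receptor-induced genes and 0 of 15 T cell identity genes, of which the nearest was Cd3e (1.85, rank 563). The nearest of the 7 to Egr1 was Nr4a1, at rank 655. These libraries share depth and background differences, so the measure is a description, and neither shared control nor a cell of origin was tested.

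**Figure D4:**
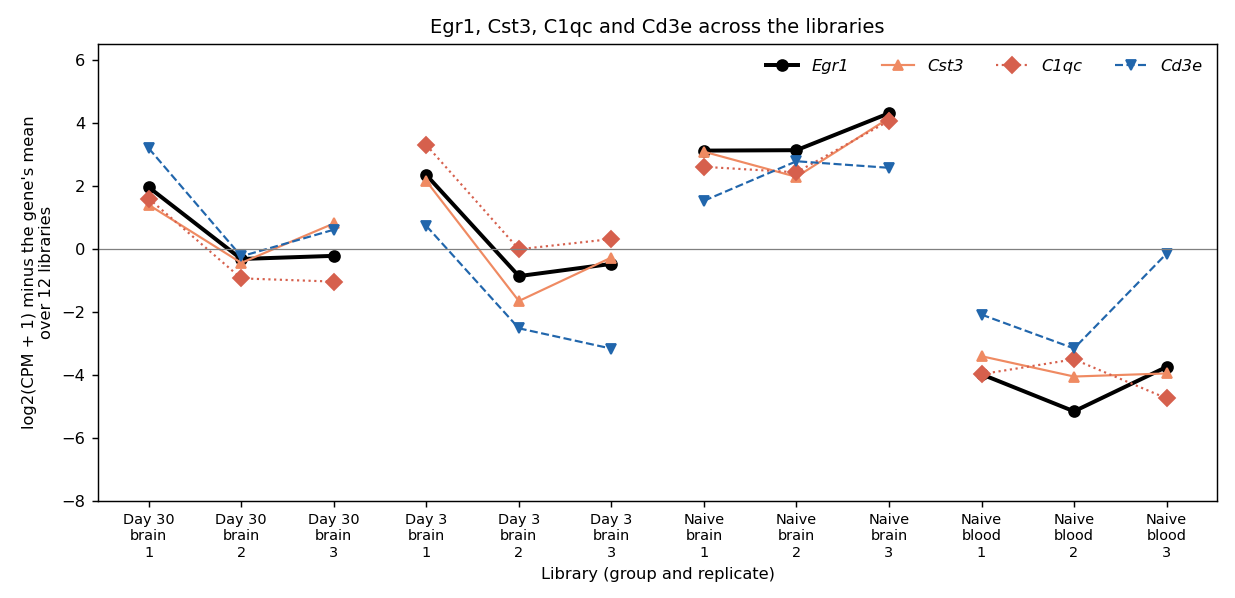
Profiles of Egr1, Cst3, C1qc and Cd3e over the 12 libraries, as log2(CPM + 1) minus each gene's mean. Cst3 and C1qc, which are among the 3 genes nearest to Egr1, follow it at root mean square differences of 0.607 and 0.816, and Cd3e, at 1.85, lies below them at day 3.

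Egr1 reads were also set against those of marker lists in each library. Per 1000 reads of the 18 microglia genes, Egr1 had 43.4, 36.8 and 18.2 reads at day 30, 23.5, 29.6 and 14.1 at day 3, 38.2, 52.2 and 38.5 in naive brain and 24.0, 8.88 and 30.5 in naive blood. On this scale the groups lay within one order of magnitude, and day 3 lay below naive brain without overlap. Cst3 alone, 1 of the 18, held much of the list. In naive brain it stood at 15693 to 57199 CPM, of 35707 to 109026 CPM for the list. At day 3 it stood at 1019 to 14297 CPM, of 3899 to 45820 CPM for the list. The blood ratios rest on 23, 9 and 42 Egr1 reads. Per 1000 reads of the 15 T cell identity genes, Egr1 had 39.3, 30.2 and 37.8 reads at day 30, 248, 249 and 129 at day 3, 185, 122 and 257 in naive brain and 2.92, 1.93 and 3.59 in naive blood. There day 3 and naive brain overlapped, and day 30 lay between them and blood.

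The other genes had other neighbours. Egr2 was nearest to Tyw1 (0.376), Prdm4 (0.387) and Zfp445 (0.483), and Egr3 to Arhgap6 (0.470), Meis1 (0.487) and Zfp612 (0.567). Nr4a1 was nearest to Yipf1 (0.632), Ankrd39 (0.671) and Pmm2 (0.673), with the immediate early gene Ier2 at rank 107. Nr4a2 was nearest to Dtx3 (0.647), Vps9d1 (0.722) and Gipc1 (0.846), with the microglia gene Sall1 at rank 18 and the immediate early gene Dusp5 at rank 67. Nr4a3 was nearest to Mavs (0.505), Parvb (0.626) and Pif1 (0.650), and Nfatc1 to Nap1l4 (0.326), Add1 (0.338) and Pnn (0.341). For Egr2, Egr3, Nr4a1, Nr4a3 and Nfatc1, no gene of the microglia, T cell identity, immediate early or receptor-induced lists was among the 100 nearest. The nearest fellow member of each of the 7 lay between rank 559 (Nfatc1 for Egr2) and rank 6657 (Nfatc1 for Egr3). The measure also reflects how widely a gene varies over the libraries.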

How the data were processed

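Libraries were made from sorted mouse CD8 T cells with the SMART-Seq v4 ultra-low input kit, per the labels' protocols. It adds no molecular identifiers, so floors cover counting error only. FastQC 0.11.2, STAR 2.5.3a, featureCounts of Subread, edgeR and the mm10 build are named per the submitters' processing notes; which annotation, strand setting and filters were used is not stated in these sources. The signal the authors deposited, in 1 table, is CPM of a scaled library size. In all 12 columns 100% of values were whole multiples of 1 read, within 1e-06 reads, and reads were recovered from them.

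The main test was limma 3.58.1 (R 4.3.3, empirical Bayes with a trend) on log2(CPM + 1) in all 12 libraries. Genes needed 1 CPM in at least 3 libraries, which 22352 met and 1585 did not. Two-sided p-values were adjusted within each of 6 comparisons. The plan had assumed plain CPM, and its test was kept for the scaled values. The fitting scripts were run on simulated counts for the day 3 and naive brain libraries only. These had the same spread setting for all genes and no background or cell-type differences, so that run does not cover such features. Alternatives were other pseudocounts, filters and scalings, edgeR 4.0.16 and DESeq2 1.42.0 on the recovered reads, a replicate block, background and microglia covariates and leaving out libraries.

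All 7 genes are named in every comparison, and from each other list up to 4 called genes by size. For each of the 7, the 3 nearest genes are named, except 1 that is not reported here. The members and the lists were chosen with earlier results of these data known, and the lists are no independent evidence. Means given for genes that were not called (Nfatc2, Nfatc3, Xcl1 and Tox against naive brain) were chosen after their values were seen. Replicate numbers come from the labels. Libraries sharing a number deviated together from their group means, with correlations of 0.530, 0.284 and 0.165 between day 30 and day 3, and were taken as paired there. Replicate 3 of day 30 correlated at 0.180 with another number. At day 30 and at day 3, library 1 was also the only library of low background, so these correlations cannot by themselves show that the libraries were paired. The other comparisons were not paired by this rule.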

Additional observations from a re-analysis of the deposited data

How the results depend on the processing

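Of 1086 recomputed differences, 973 kept their direction and their side of the threshold, 60 changed sign, 44 lost a call and 9 gained one, and none of the 7 called differences changed sign under any of the 27 alternatives. All these counts, and those of alternatives held, include fits without 1 library of a group outside the comparison. Such fits leave the difference itself unchanged, so its direction cannot change there, and a call can move only through the shared estimate of spread. Only 7 of 42 differences were called, and since only a called difference can lose a call, all 44 losses fell on these by definition. Against blood, Egr1 held in 25 of 25 alternatives in naive brain and 24 of 25 at each time. Nr4a1 held in 18 of 25 in naive brain, and Nr4a2 in 20 of 25 there and 8 of 25 at day 30. Egr1 at day 3 against naive brain held in 14 of 27. The number of genes called among the 7 changed as follows. For day 3 against naive brain it was 0, not 1, with a pseudocount of 0.1, no filter, quantile normalization, median centring, edgeR, DESeq2, the background covariate and the microglia covariate, and 0 to 1 when 1 library was left out. For day 30 against naive brain it was 1, not 0, with unscaled CPM, the replicate block, the 9 brain libraries alone and without the first replicates of day 3 and day 30, and 0 to 1 with 1 library left out. For naive brain against blood it was 1, not 3, with quantile normalization, the fit on the 2 groups and the background covariate, 2 with unscaled CPM, edgeR and DESeq2, and 2 to 3 when 1 library was left out. Against blood, median centring gave 0 at both times. For day 30 against blood, pseudocounts of 0.1 and 5, no filter, a filter of 10 CPM, quantile normalization, the fit on the 2 groups, edgeR, DESeq2, the background covariate and leaving out the first replicates of day 3 and day 30 gave 1, not 2. Leaving out 1 library gave 1 to 2 in both comparisons with blood.

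Over all genes tested, calls ran from 1 with the background covariate to 1081 without the first replicates for day 3 against naive brain (160 as reported, 975 by DESeq2, 17 by edgeR). They ran from 0 in the fit on the 2 groups to 599 without the first replicates for day 30 against naive brain (50 as reported). They ran from 8 to 298 for day 30 against day 3 (57), from 18 to 3799 for naive brain against blood (1696), from 75 to 601 for day 3 against blood (264) and from 11 to 296 for day 30 against blood (159). Scaling and the filter on low values moved the median difference of all genes. With a filter of 10 CPM in 3 libraries it was -0.32 at day 3 and -0.14 at day 30 against naive brain. Naive brain against blood gave 0.46 with that filter, so these 3 medians changed sign. Without that filter, the median for day 3 against naive brain was 0.50 as reported, 1.13 with unscaled CPM, -0.56 with median centring, 0.025 with quantile normalization and 1.03 by DESeq2. In the same order of settings it was 0.19, 0.57, -0.65, 0.059 and 0.45 for day 30 against naive brain. For day 30 against day 3 it was -0.15, -0.45, 0.067, 0.021 and -0.32. For naive brain against blood it was -0.37, -1.05, 0.90, -0.14 and -1.02. For day 3 against blood it was 0.03, -0.063, 0.24, -0.12 and -0.075, and for day 30 against blood -0.048, -0.44, 0.37, -0.059 and -0.31. Under each of these scalings Egr1 lay below that median at both times against naive brain and above it in the 3 comparisons with blood.

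Signs that changed belong to differences that were not called, and the cause was not tested. With the background covariate they were 0.55 for Nr4a1 at day 3 and -0.42 for Egr3 and 0.15 for Nfatc1 at day 30 against naive brain. With it they were also -0.19 for Egr1 between day 30 and day 3, 0.33 for Nr4a3 and -0.16 for Nfatc1 between naive brain and blood, and -0.0097 for Nfatc1 at day 30 against blood. With the microglia covariate against naive brain they were 0.36 for Nr4a1 at day 3, and -1.04 for Egr3, 0.059 for Nr4a1 and 0.077 for Nfatc1 at day 30. With median centring Nr4a3 gave -0.18 at day 3 and -0.18 at day 30 against naive brain, 0.0052 between day 30 and day 3 and 1.02 between naive brain and blood. Egr3 gave -0.70 at day 30 against naive brain, and at day 3 against blood Egr2 gave 0.041 and Nfatc1 0.15. With edgeR Nr4a3 gave -0.022 at day 3 against naive brain, 0.25 between day 30 and day 3 and 0.64 between naive brain and blood. edgeR also gave Egr1 -0.17 and Nr4a1 0.19 between day 30 and day 3, and Nfatc1 0.097 at day 3 against blood. With quantile normalization they were 0.25 for Egr2 and -0.43 for Egr3 at day 30 against naive brain, and -0.34 for Egr1 and 0.38 for Nr4a3 between day 30 and day 3. They were also 0.52 for Nr4a3 between naive brain and blood and -0.016 for Nfatc1 at day 30 against blood. Egr2 at day 30 against naive brain gave 0.34 with unscaled CPM, 0.12 with DESeq2 and 0.17 without the first replicates. Egr1 between day 30 and day 3 gave -0.16 with unscaled CPM and -0.31 with DESeq2, where Nr4a3 gave 0.18. Without the first replicates, Egr3 gave -0.29 at day 30 against naive brain and 0.36 at day 3 against blood, and Nr4a3 0.66 between day 30 and day 3. A pseudocount of 5 gave 0.061 for Nr4a3 between naive brain and blood.

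With 1 library left out in turn, Nr4a3 ran from -0.16 to 2.0 at day 3 and from -0.36 to 1.79 at day 30 against naive brain, from -0.90 to 0.67 between day 30 and day 3, from -1.36 to 0.79 between naive brain and blood and from -0.27 to 1.31 at day 30 against blood. At day 30 against naive brain, Egr2 ran from -0.71 to 0.17 and Egr3 from -0.29 to 0.55. Between day 30 and day 3, Egr1 ran from -0.61 to 1.14 and Nr4a1 from -2.08 to 0.49. At day 3 against blood, Egr2 ran from -0.45 to 0.20, Egr3 from -1.06 to 0.36 and Nfatc1 from -0.53 to 0.29.

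In the 1 comparison whose libraries were taken as paired by replicate number, day 30 against day 3, the replicate block changed no call among the 7. The block was fitted on all 12 libraries, naive brain and blood included, so it is not a paired test of day 30 against day 3. In the other comparisons the libraries were not taken as paired, and there the block called Egr1 at day 30 against naive brain (-3.05, adjusted p = 0.00486 by limma). Covariates for the 9 brain libraries and the fit without the first replicates were added after seeing the data.

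Egr3, Nr4a3 and the blood values of Egr1 and Nr4a1 rest on few reads, and background and group are partly confounded, since all 3 naive brain libraries and no blood library were of low background.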
